A study of Mus musculus with 8 samples.

Results

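The 2 mature products of the miR-1843a hairpin, mmu-miR-1843a-5p and mmu-miR-1843a-3p (written without the species prefix from here on), are described here across small RNA libraries of splenic CD8+ T cells from neonatal and adult C57BL/6 mice. They are 2 of the 1978 mature microRNAs (miRNAs) counted, and each has a single entry in the table, on a single precursor. They were chosen by their neonatal to adult fold change, since both arms stood much lower in neonatal libraries, so their levels and arm ratio are given as a description with no test. Neonatal mice were 5 to 7 days old (n = 4 libraries) and adult mice 12 weeks old (n = 4). No allele, agent or treatment is named for either age. CD8+ cells came from spleen by magnetic enrichment for CD8a, which need not remove every other cell. The labels do not say whether the libraries of an age came from separate animals or from pools, so a p-value here speaks to the spread among these libraries, which may be technical.

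A miRNA is cut as a short duplex from a hairpin in a longer transcript. One or both strands of the duplex (the 5p and the 3p arm) are loaded into Argonaute, which then represses messenger RNAs that pair with bases 2 to 8 of the loaded strand, the seed. Most hairpins are released in the nucleus by Drosha, but some lie inside small nucleolar RNAs or small Cajal body RNAs (scaRNAs), structured RNAs that guide chemical modification of ribosomal and spliceosomal RNA. In such a gene the same bases serve as part of a guide RNA and as a miRNA hairpin, and a short read from them does not say which of the molecules it came from.

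The sequences show how closely miR-1843a is tied to a scaRNA and to a second hairpin, miR-1843b. On the mm10 (GRCm38) assembly the miR-1843a hairpin lies at chr12:80391613-80391677 on the minus strand, in an intron of Dcaf5, which encodes a substrate receptor of a ubiquitin ligase. The nearest Dcaf5 exons end at position 80376731 and start at position 80397653, so no Dcaf5 exon touches the hairpin. The hairpin overlaps the scaRNA gene Scarna3b (chr12:80391613-80391751) on the same strand. The miR-1843b hairpin lies at chr1:159340358-159340423 on the plus strand, in an intron of Cop1, and overlaps a related scaRNA gene, Scarna3a (chr1:159340283-159340422). Both hairpins are shown with their mature arms in capitals (RefSeq, GRCm38.p6), because most of their letters are the same:
miR-1843a hairpin: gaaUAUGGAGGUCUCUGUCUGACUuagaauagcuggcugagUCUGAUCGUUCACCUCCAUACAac
miR-1843b hairpin: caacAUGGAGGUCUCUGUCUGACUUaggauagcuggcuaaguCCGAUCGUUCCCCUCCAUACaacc

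Of 65 bases aligned without a gap, 59 were identical (90.8%). The 6 differences from miR-1843a to miR-1843b, counted from 1 at the 5′ end of the hairpin, were G1C, U4C, A28G, G39A, U44C and A53C. The mature arms are shown next with their seeds (bases 2 to 8) in capitals:
miR-1843a-5p: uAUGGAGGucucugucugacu
miR-1843b-5p: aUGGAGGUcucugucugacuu
miR-1843a-3p: uCUGAUCGuucaccuccauaca
miR-1843b-3p: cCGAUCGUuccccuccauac

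The 5p arms differ only in where they start and end. They share a run of 20 identical bases, with miR-1843b-5p starting 1 base later, so that the annotated seeds are AUGGAGG and UGGAGGU. Over 20 aligned bases the 3p arms differ at U3C and A12C, counted from the 5′ end of miR-1843a-3p, and 1 of these lies in its seed. None of the other mature miRNAs among the 1679 with a RefSeq sequence had the seed of any of these 4 arms.

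An exact search of 141767 GENCODE transcripts found the letters of miR-1843a-5p and of miR-1843a-3p in 3 genes each. These were Mir1843a and Scarna3b, which overlap on chromosome 12, and CT030161.1, whose place was not looked up. The letters of miR-1843b-3p were in 2 genes, Mir1843b and Scarna3a. The full letters of miR-1843b-5p were in all 5 of these genes, since the miR-1843a hairpin continues with the base that ends miR-1843b-5p. A read with exactly the sequence of miR-1843b-5p can thus come from either hairpin, whereas the full miR-1843a-5p sequence begins with a base that the miR-1843b hairpin does not have.

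Within the scaRNA the hairpin makes up the 3′ part. Scarna3b, 139 bases long in GENCODE, is shown as DNA letters with both arms in capitals, because it places the arms in the guide RNA:
Scarna3b: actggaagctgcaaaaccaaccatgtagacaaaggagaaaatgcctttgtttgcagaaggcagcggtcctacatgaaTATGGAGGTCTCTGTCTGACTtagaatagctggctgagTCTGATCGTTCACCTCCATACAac

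The hairpin runs from base 75 to base 139 of Scarna3b, which is 46.8% of its length. The 5p arm lies at bases 78 to 98 and the 3p arm at bases 116 to 137. The 3p arm ends on an ACA triplet that is followed by 2 bases, and an ACA near the 3′ end is the mark by which H/ACA guide RNAs are known. Scarna3a, 140 bases long, has a like layout, with miR-1843b-5p at bases 80 to 100, miR-1843b-3p at bases 118 to 137 and an ACA starting at base 136. Folded with RNAfold, the miR-1843a hairpin had a predicted energy of -23.1 kcal/mol and 20 base pairs, 15 of them between its arms. The miR-1843b hairpin had -21.4 kcal/mol and 18 base pairs, 12 of them between its arms.

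**Figure D1:**
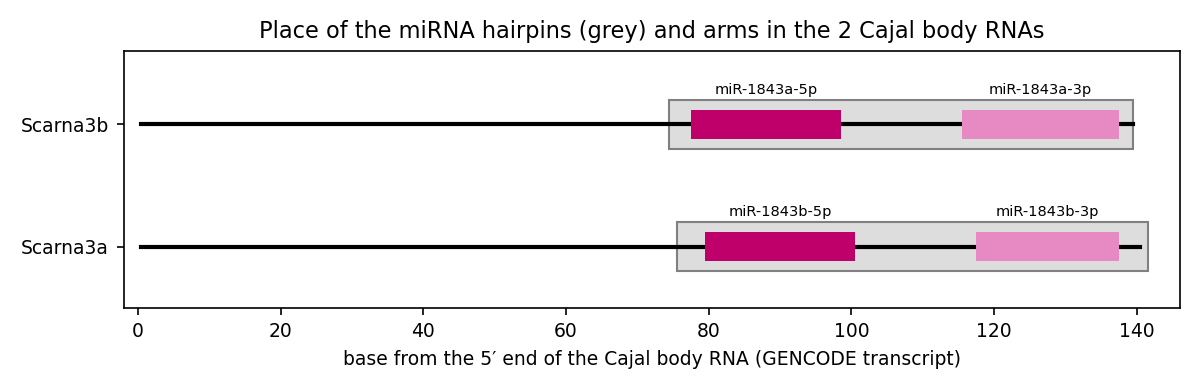
Place of the miRNA hairpins (grey boxes) and of their 5p (dark) and 3p (light) arms in the Cajal body RNAs Scarna3b and Scarna3a (black lines), in bases from the 5′ end of each scaRNA. Both hairpins take the 3′ part, with the miR-1843a hairpin at bases 75 to 139 of Scarna3b.

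Libraries held 1281032 to 2606630 counts, spread over 608 to 787 detected miRNAs. Levels are counts scaled to a total of 1e6 (CPM) with TMM, a trimmed mean of ratios between libraries, and fold changes are neonatal over adult. The TMM factor lay between 1.16 and 1.3 for neonatal and between 0.788 and 0.812 for adult libraries. With library totals in place of TMM, log2 fold changes moved up by 0.63 at the median of all miRNAs tested, and fold changes given here are on the TMM scale unless stated. The listed T cell miRNAs (miR-150-5p, miR-142a-3p, miR-142a-5p, miR-181a-5p, miR-155-5p and miR-146a-5p) had counts at both ages, summing to 71926 to 75149 CPM (neonatal) and 153051 to 216378 CPM (adult). They are also found in other white blood cells.

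miR-1843a-5p was the more counted arm at both ages. It had 210, 508, 325 and 630 counts in the neonatal libraries, numbered 1 to 4, and 896, 1760, 1971 and 2384 counts in the adult ones. Scaled for depth these were 112, 194, 141 and 225 CPM in neonatal libraries and 869.6, 1231, 936 and 1196 CPM in adult ones (mmu-miR-1843a-5p). All neonatal libraries lay below all adult libraries, and at each age libraries 2 and 4 were above libraries 1 and 3. The mean was 168 ± 50.9 CPM (SD, n = 4) in neonatal and 1058 ± 182 CPM (SD, n = 4) in adult libraries. The log2 fold change was -2.65 ± 0.23 (SE), a 6.28-fold lower level in neonatal libraries. This was rank 7 of the tested miRNAs from the lowest fold change, and by level the arm ranked 76 in adult and 132 in neonatal libraries.

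miR-1843a-3p had 126, 209, 180 and 217 counts in neonatal and 451, 546, 860 and 841 counts in adult libraries 1 to 4. Its levels were 67.2, 79.7, 78.4 and 77.6 CPM in neonatal libraries and 438, 382, 409 and 422 CPM in adult ones (mmu-miR-1843a-3p). The ages again did not overlap, and within each age the libraries lay much closer together than for the 5p arm, with no split by library number. The mean was 75.7 ± 5.74 CPM (SD, n = 4) in neonatal and 413 ± 23.6 CPM (SD, n = 4) in adult libraries. The log2 fold change was -2.44 ± 0.14 (SE), a 5.44-fold lower level in neonatal libraries and rank 11 from the lowest.

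For comparison, edgeR's quasi-likelihood test called 237 of the 375 miRNAs tested at a Benjamini-Hochberg adjusted p under 0.05 (63.2%), with 34.1% lower and 29.1% higher in neonatal libraries. The ages did not overlap for 57.3% of the miRNAs, and for 30.9% the neonatal libraries were the lower ones. Nothing is read from these shares for the miR-1843a arms, since this contrast chose them. In bulk samples fewer cells of a type that make the RNA and less RNA per cell cannot be told apart.

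Between same-numbered libraries the log2 ratio of neonatal to adult CPM was -2.96, -2.67, -2.73 and -2.41 for miR-1843a-5p in numbers 1 to 4. For miR-1843a-3p it was -2.70, -2.26, -2.38 and -2.44. As the ages did not overlap, every pairing gives a negative ratio, so its sign adds nothing to the levels. In libraries 1 and 3 alone, a division chosen after seeing the data, the fold changes were -2.70 (5p) and -2.40 (3p), and in libraries 2 and 4 alone -2.57 and -2.39. With library totals they were -2.03 for the 5p arm and -1.81 for the 3p arm.

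**Figure D2:**
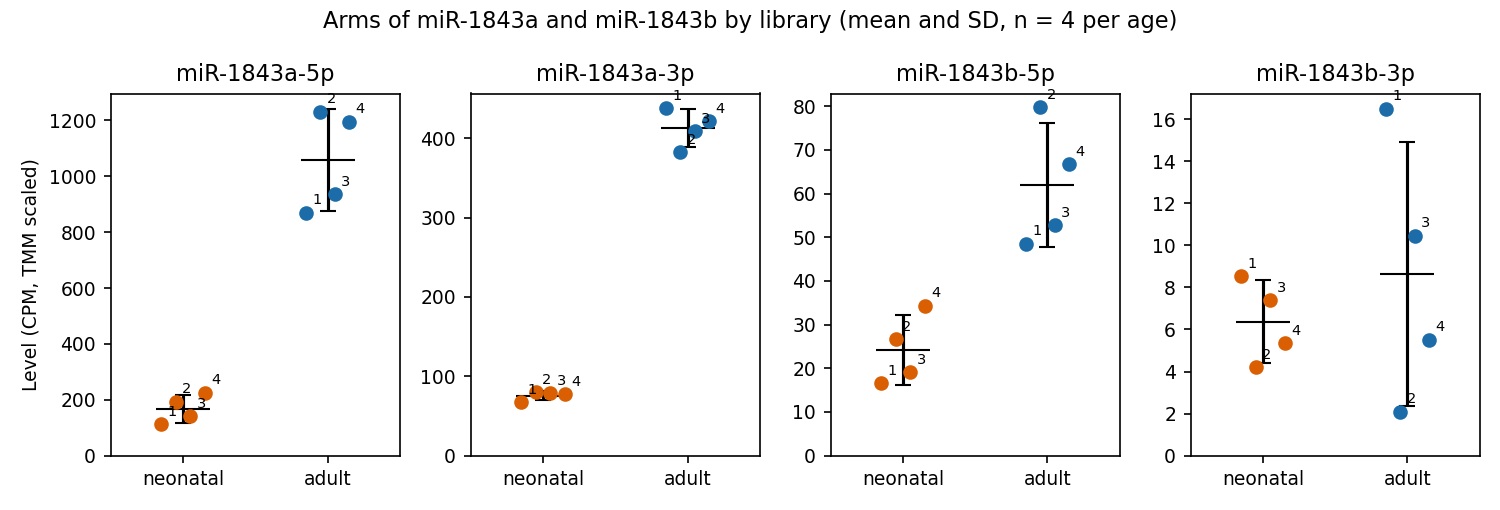
Levels in CPM (TMM scaled, linear axis from 0) of both arms of miR-1843a and miR-1843b in the 4 neonatal and 4 adult libraries, each point marked with its library number, with the mean (line) and SD (bars). Both miR-1843a arms and miR-1843b-5p separate the ages, while miR-1843b-3p, with 3 to 22 counts per library, does not.

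The balance between the arms overlapped between the ages. The 5p arm took 62.5% of the hairpin's counts in neonatal library 1 (95% exact Clopper-Pearson interval 57.1 to 67.7, counting error only). The share was 70.9% (67.4 to 74.2), 64.4% (60.0 to 68.5) and 74.4% (71.3 to 77.3) in the neonatal libraries numbered 2 to 4. Adult libraries 1 to 4 had 66.5% (63.9 to 69.0), 76.3% (74.5 to 78), 69.6% (67.9 to 71.3) and 73.9% (72.4 to 75.4). The mean share was 68.0% ± 5.55 (SD, n = 4) in neonatal and 71.6% ± 4.38 (SD, n = 4) in adult libraries, and the ages overlapped. The 5p arm was ahead in all 8 libraries, but library kits ligate adapters with sequence preferences, so the arms' counts do not give their true proportions in the cell.

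As log2 of 5p over 3p counts, the arm ratio of miR-1843a was 0.73, 1.28, 0.85 and 1.54 in the neonatal libraries and 0.99, 1.69, 1.20 and 1.5 in the adult ones, by number. The neonatal mean was 1.10 ± 0.37 (SD, n = 4) and the adult mean 1.34 ± 0.31 (SD, n = 4), a difference of -0.24. Between same-numbered libraries the difference was -0.25, -0.41, -0.35 and 0.03 for numbers 1 to 4, lower in the neonatal library of 3 of the 4. Without neonatal library 1 or 3 or adult library 2 the mean difference was -0.12, -0.16 or -0.13, and without neonatal library 4 it was -0.39. Among 82 hairpins with both arms tested the median size of this difference was 0.59 and 15 hairpins had a smaller one than miR-1843a. Because miR-1843a was chosen for a fall in both arms, a small difference is partly set by that choice, and nothing is read from this place. The ratio divided the libraries by number, with 2 and 4 above 1 and 3 at both ages. The same division held for 15.9% of the 82 hairpins, and the opposite one for 4.88%. For CPM levels it held for 21.1% of the miRNAs tested, miR-1843a-5p among them, and the opposite for 13.9%. The labels do not say what a library number stands for.

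**Figure D3:**
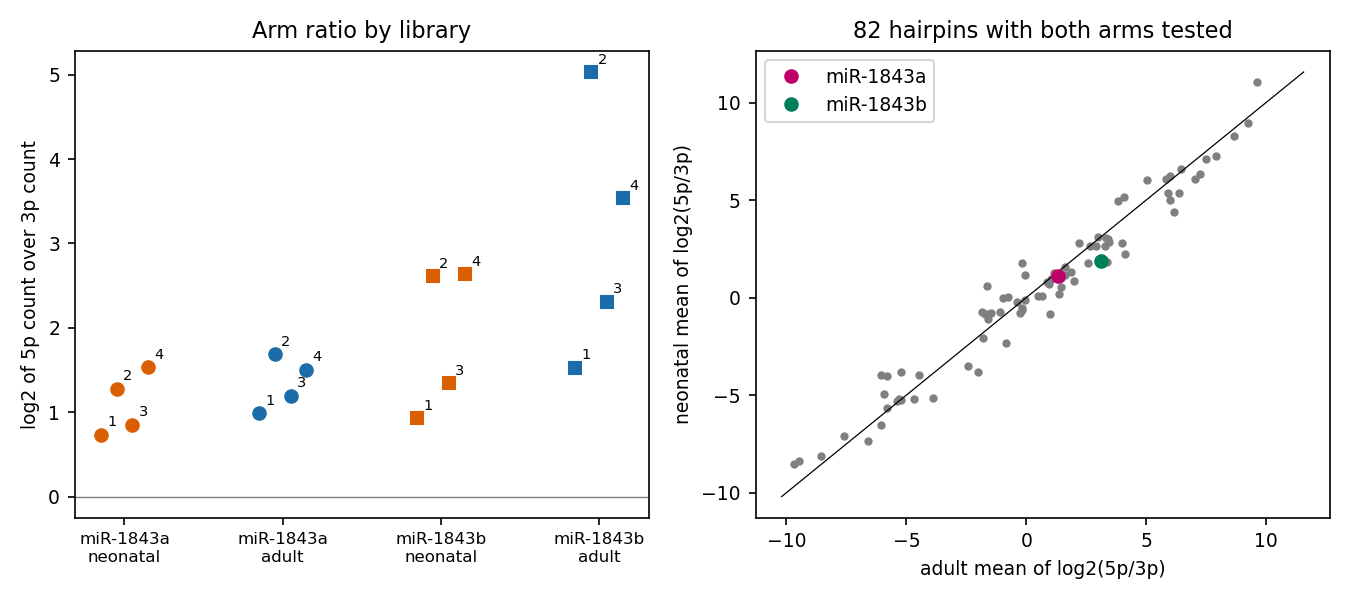
Left, log2 of the 5p count over the 3p count for miR-1843a (circles) and miR-1843b (squares) in each neonatal (orange) and adult (blue) library, marked with the library number. Right, the mean of this ratio in adult (x) and neonatal (y) libraries for 82 hairpins, with the line of equal ratios: miR-1843a lies close to the line, at 1.34 and 1.10.

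miR-1843b gives a view of the same arms at another place in the genome. miR-1843b-5p had 31, 70, 44 and 96 counts in neonatal and 50, 114, 111 and 133 counts in adult libraries 1 to 4, or 16.5, 26.7, 19.2 and 34.3 CPM and 48.5, 79.7, 52.7 and 66.7 CPM. The ages did not overlap, and libraries 2 and 4 were above 1 and 3 at both ages, as for miR-1843a-5p. Its mean was 24.2 ± 8.01 CPM (SD, n = 4) in neonatal and 61.9 ± 14.2 CPM (SD, n = 4) in adult libraries. It fell in neonatal libraries, with a log2 fold change of -1.34 ± 0.26 (SE) by edgeR's test (adjusted p = 0.000651). Because its whole sequence also lies in the miR-1843a hairpin, this is not a measurement independent of miR-1843a.

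miR-1843b-3p, whose letters occur only at the chromosome 1 place, is the arm of miR-1843b that tells this hairpin from that of miR-1843a. It had 16, 11, 17 and 15 counts in neonatal and 17, 3, 22 and 11 counts in adult libraries 1 to 4. These were 6.37 ± 1.96 CPM (SD, n = 4) and 8.64 ± 6.26 CPM (SD, n = 4), and the ages overlapped. Its log2 fold change of -0.40 ± 0.48 (SE) was not called by edgeR's test (adjusted p = 0.492), and the value moved between settings. It was 0.23 with library totals and 0.21 in libraries 2 and 4 alone, but -0.72 with a GC offset and -0.56 in libraries 1 and 3 alone. Leaving out 1 library at a time gave -0.66 (without adult library 2) to -0.01 (without adult library 1), and none of these passed. With so few counts a small change in either direction was not detectable.

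miR-1843b-5p made up 5.29%, 6.08%, 5.33% and 5.28% of the 5p counts of both hairpins in adult libraries 1 to 4, and 12.9%, 12.1%, 11.9% and 13.2% in neonatal libraries 1 to 4. The share was thus nearly constant within an age. For the 3p arms, miR-1843b took 0.546% to 3.63% in adult and 5.0% to 11.3% in neonatal libraries. The ages did not overlap for either arm, a description only, since the level of miR-1843a enters both shares.

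The deposited estimated counts are not all whole. For miR-1843a-5p the value ended in 0.5 in 5 of 8 libraries and was whole in 3, and for miR-1843a-3p it ended in 0.5 in 3 of 8. miR-1843b-5p ended in 0.5 in 3 of 8 libraries and miR-1843b-3p in none. The fraction was the same in both hairpins' 5p arms in 2 of 8 libraries and in both 3p arms in 5 of 8. How many reads were shared with another entry cannot be read from the values.

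miR-1843a was next compared with other miRNAs whose hairpin overlaps, on the same strand, a gene that GENCODE annotates as a small nucleolar RNA or scaRNA. The table had 24 such miRNAs on 14 hairpins. For miR-1839, miR-1949, miR-3068, miR-3535, miR-677 and miR-7650 the gene so typed is the hairpin's own entry, so no separate guide RNA gene is named there. Apart from the miR-1843a arms 16 were tested, and the other 6 had at most 14 counts in any library. Of the 16, 10 fell in neonatal libraries and none rose by edgeR's test at an adjusted p under 0.05, beside 34.1% lower and 29.1% higher among all miRNAs. At an unadjusted p under 0.05 edgeR also had 10 lower and 0 higher, and DESeq2 had 10 lower and 1 higher at an adjusted p under 0.05 (31.7% and 33.6% of all, 65.3% in either direction). With the library number as a block, edgeR called 11 lower and 2 higher (37.3% and 33.3% of all, 70.7% in either direction). Without the arms of miR-1843b 9 of 14 fell. The median log2 fold change was -1.02 for the 16, and -0.05 for all miRNAs tested. With library totals 5 were lower and 4 higher, beside 18.1% lower and 49.6% higher among all miRNAs (67.7% in either direction), and the median was -0.39 beside 0.58. The 10 came from 7 of 10 hairpins, 1 of them miR-1843b, and 2 arms of a hairpin are not independent.

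The mature arms of this group that fell and have a RefSeq entry are shown with seeds in capitals. Each hairpin carries a GENCODE type of small nucleolar RNA or scaRNA, for miR-3068 and miR-3535 on its own entry. None has the seeds of miR-1843a. Among tested hairpins, GENCODE types the gene as a scaRNA for miR-1843a, miR-1843b, miR-6516 and miR-1839. The arms of miR-1839 were not called in the fit reported. Of the arms shown, those of miR-6516 lie on a scaRNA gene and the others on small nucleolar RNA genes:
miR-664-5p: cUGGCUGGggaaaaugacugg
miR-664-3p: uAUUCAUUuacuccccagccua
miR-3068-5p: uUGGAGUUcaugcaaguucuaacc
miR-3068-3p: gGUGAAUUgcaguacuccaaca
miR-6516-5p: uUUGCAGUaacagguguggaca
miR-6516-3p: uCAUGUAUgauacugcaaacag
miR-3535: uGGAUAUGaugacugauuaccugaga
miR-5121: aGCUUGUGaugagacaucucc

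miR-664, on the small nucleolar RNA gene Snora36b in an intron of Rab3gap2, was measured on both arms. miR-664-3p had 39, 54, 46 and 67 counts in neonatal and 100, 77, 210 and 125 counts in adult libraries 1 to 4. It went from 78.3 ± 23.5 CPM (SD, n = 4) in adult to 21.3 ± 1.77 CPM (SD, n = 4) in neonatal libraries. The log2 fold change was -1.87 ± 0.24 (SE; edgeR's adjusted p = 2.61e-05), with no overlap between ages. miR-664-5p fell from 38.7 ± 1.12 to 21.1 ± 2.17 CPM (SD, n = 4 each; log2 fold change -0.87 ± 0.19 SE, edgeR's adjusted p = 0.00139). Its call was lost with library totals and from libraries 1 and 3 alone (edgeR's adjusted p of 0.286 and 0.0715). The log2 arm ratio of miR-664 had means of -0.02 ± 0.26 (SD, n = 4) in neonatal and -0.96 ± 0.48 (SD, n = 4) in adult libraries. Whether this differs from miR-1843a was not tested.

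Both arms of miR-3068, in an intron of Alkbh1, which encodes a nucleic acid demethylase, fell. miR-3068-3p went from 188 ± 20.0 to 85.8 ± 13.5 CPM (SD, n = 4 each) and changed by -1.13 ± 0.17 (SE; edgeR's adjusted p = 9.73e-05). miR-3068-5p changed by -1.18 ± 0.24 (SE; edgeR's adjusted p = 0.000942). The log2 arm ratio of miR-3068 was -0.14 in neonatal and -0.07 in adult libraries.

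miR-6516-5p fell, with a log2 fold change of -2.14 ± 0.37 (SE; edgeR's adjusted p = 0.000295), the largest fall of the 16, on 3 to 22 counts per neonatal library. Its partner miR-6516-3p had 18, 4, 3 and 4 counts in neonatal libraries 1 to 4 and 11 to 25 in adult ones. It changed by -1.77 ± 0.61 (SE; edgeR's adjusted p = 0.0216). It lost its call without neonatal library 2, 3 or 4 or adult library 1 or 3 (edgeR's adjusted p of 0.0566 to 0.0905) and with library totals (0.128). Without neonatal library 1 its change was -2.85.

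miR-3535 and miR-5121, the latter on Snord33, were among the most counted of the group, and their adult libraries spread widely. miR-3535 went from 2918 ± 1261 to 1272 ± 380.3 CPM (SD, n = 4 each; log2 fold change -1.20 ± 0.29 SE, edgeR's adjusted p = 0.00279). miR-5121 went from 2110 ± 1112 to 943 ± 98.4 CPM (SD, n = 4 each; log2 fold change -1.16 ± 0.32 SE, edgeR's adjusted p = 0.0067). The ages overlapped for both. miR-1949 fell as well, with a log2 fold change of -0.92 ± 0.22 (SE; edgeR's adjusted p = 0.0028). All 3 lost their calls with library totals (edgeR's adjusted p of 0.116, 0.17 and 0.286).

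The other miRNAs of the group did not pass. GENCODE types the gene of miR-1839 as a scaRNA. miR-1839-5p, the most counted at 3073 ± 458 CPM (neonatal) and 3174 ± 546 CPM (adult; SD, n = 4 each), had a log2 fold change of -0.05 ± 0.16 (SE). With library totals it stood at 0.58 and was called higher (edgeR, adjusted p = 0.00338). The median of all miRNAs was then also 0.58, and 49.6% of them were called higher. miR-1839-3p stood at 0.22 ± 0.29 (SE), and passed as higher without adult library 3 and with library totals (edgeR's adjusted p of 0.0365 and 0.0196). miR-1291, on Snora34, stood at -0.62 ± 0.34 (SE) and passed as lower with the library number as a block (edgeR's adjusted p = 0.0155). The arms of miR-677, in an intron of Atp5b, stood at 0.78 ± 0.42 (5p) and 0.64 ± 0.34 (3p; SE). With the block both passed as higher (edgeR's adjusted p of 0.0111 and 0.036). With library totals both passed as well (0.0134 and 0.00635). By edgeR miR-677-5p also passed as higher without neonatal library 4 (adjusted p = 0.0302) and without a filter (0.0159). The same held with the GC offset (0.0359) and with the GC offset and the block (0.0029). It passed in libraries 1 and 3 alone (0.0343) and in 2 and 4 alone (0.0276), and by DESeq2 (adjusted p = 0.0466). miR-677-3p passed without adult library 1 (edgeR's adjusted p = 0.0316) and in libraries 2 and 4 alone (0.00616).

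**Figure D4:**
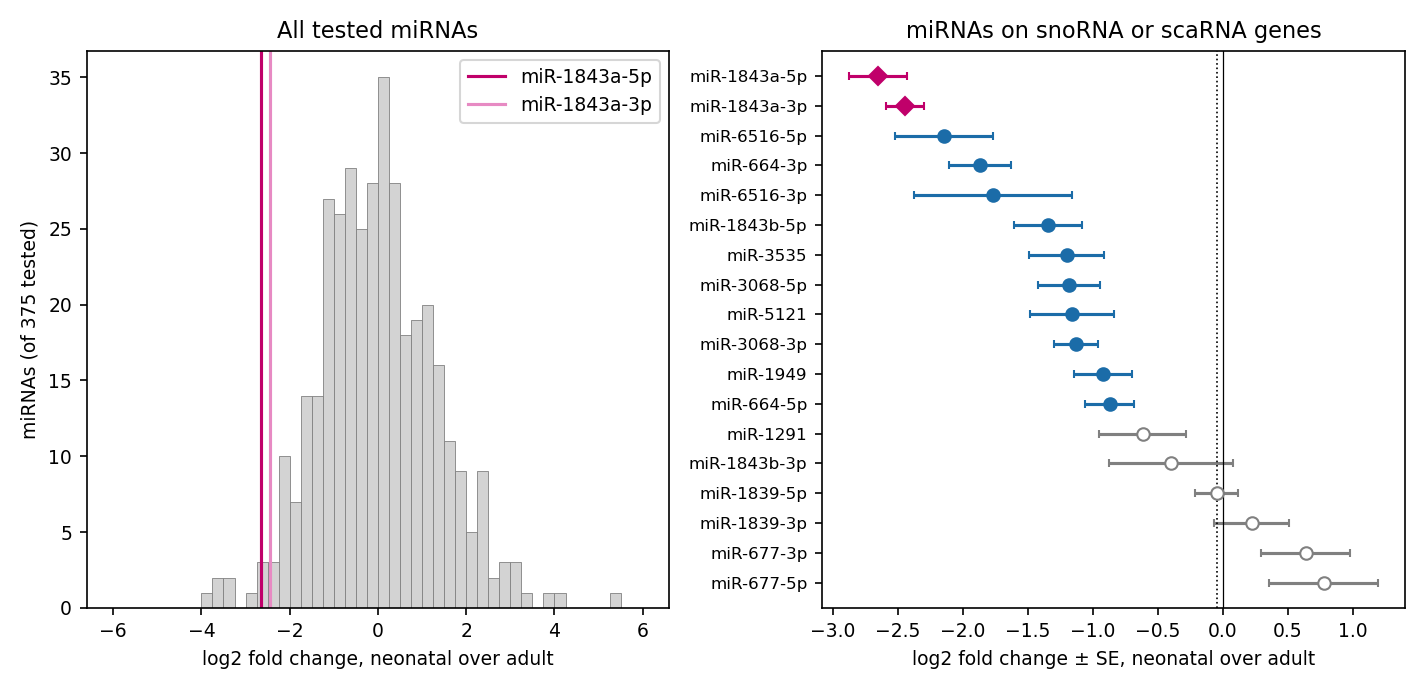
Left, histogram of log2 fold changes (neonatal over adult) of the tested miRNAs, with lines at miR-1843a-5p (-2.65) and miR-1843a-3p (-2.44). miR-301b-3p (7.99) lies beyond the range of the bars and is not drawn. Right, log2 fold change ± SE of the miRNAs on small nucleolar RNA or scaRNA genes: diamonds are the miR-1843a arms, shown without a test, filled circles passed edgeR's test, open circles did not, and the dotted line is the median of all miRNAs (-0.05).

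Being in an intron was a wider class. Of 167 other tested miRNAs whose hairpin lies in an intron of a protein-coding gene on the same strand, 67 fell (40.1%) and 34 rose (20.4%), beside 34.1% and 29.1% of all miRNAs. Their median log2 fold change was -0.30. With library totals 38 were lower (22.8%) and 73 higher (43.7%), beside 18.1% and 49.6% of all miRNAs, which is near the background. No other miRNA hairpin lies near miR-1843a. The nearest annotated ones on chromosome 12 are Mir3067, 774.5 kb away on the other strand, and Mir5135, 3858.4 kb away, and their miRNAs had 0 counts in all libraries.

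The miRNAs with the most similar profile over the 8 libraries were found by the root mean square difference of log2 CPM, each miRNA centred on its own mean. All points share the age difference, so the likeness mostly reflects the size of that difference and carries no test. For miR-1843a-5p the nearest was miR-146a-5p, which restrains NF-kB activity, at a difference of 0.25 log2 units, followed by miR-200a-3p (0.28), its own partner miR-1843a-3p (0.32), miR-3964 (0.33) and miR-504-5p (0.35). The median difference from all other miRNAs was 1.40. For miR-1843a-3p they were miR-504-5p (0.15), let-7b-5p (0.17), miR-139-5p (0.22), let-7c-5p (0.26) and miR-146a-5p (0.27), with a median of 1.25 over all others. The partner arm came at rank 7 for miR-1843a-3p. None of these other miRNAs lies on a small nucleolar RNA or scaRNA gene.

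**Figure D5:**
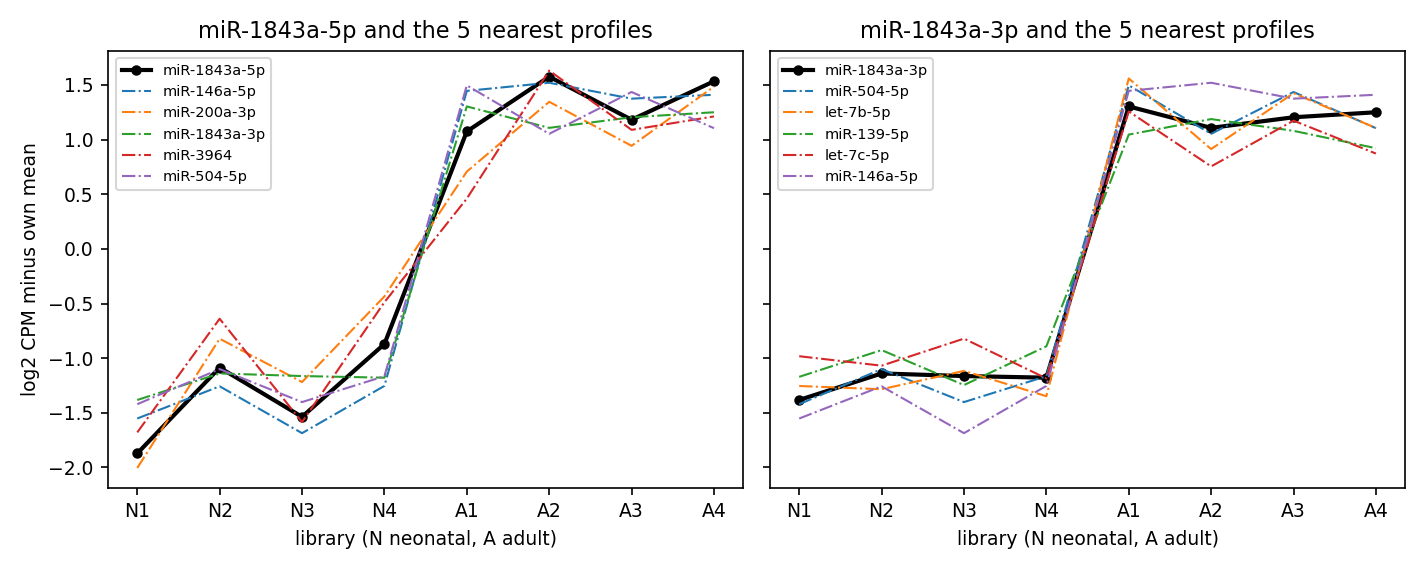
Log2 CPM minus each miRNA's own mean in neonatal (N1 to N4) and adult (A1 to A4) libraries for miR-1843a-5p (left) and miR-1843a-3p (right), in black, with the 5 miRNAs of nearest profile. The 3p arm is flat within each age, while the 5p arm is higher in libraries 2 and 4.

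Markers of other cells moved with age beside these results, and their counts stand beside 29.1% higher and 34.1% lower among all miRNAs. The summed erythroid miRNAs (3 of 5 tested, all 3 higher) were at 308 to 774 CPM in neonatal and 120 to 251 CPM in adult libraries. The endothelial (2 of 2 higher) were at 125 to 160 and 46.6 to 76.9 CPM, and the stromal (3 of 5 tested, all 3 higher) at 114 to 169 and 36.1 to 83.2 CPM. The liver miRNA miR-122-5p was at 745 to 1590 and 245 to 390 CPM, and it was higher in neonatal libraries. The epithelial miRNAs (6 of 7 tested, 3 lower) were at 2716 to 3447 and 3894 to 4518 CPM. The muscle miRNAs (2 of 3 tested, neither passing) were at 5.87 to 17.5 and 4.51 to 17.5 CPM. The myeloid miRNAs, miR-223-3p and miR-223-5p, were too low to test, at 3.48 to 8.53 and 2.85 to 9.09 CPM. Of the 6 T cell miRNAs 5 were lower. With library totals, where 49.6% of all miRNAs were higher and 18.1% lower, the T cell list had 1 higher and 4 lower, the epithelial list 3 higher and 2 lower, and the muscle list 1 higher. The erythroid, endothelial, stromal and liver counts were as with TMM. No listed marker was at 0 in all libraries, and their part in the levels of miR-1843a was not tested.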

How the data were processed

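The values the authors deposited are estimated counts, 1 for each pair of mature miRNA and precursor, with no normalization applied. The genome build was mm10, per the submitters' processing notes. Which aligner, counter and miRNA annotation were used is not given in the sources used here. Among non-zero values 71.4% were whole within 0.001. Values were summed over precursors and rounded to whole counts. miRNAs were kept by filterByExpr (minimum count 10, minimum total 15). The test was that of edgeR 4.0.16, run in R 4.3.3 (quasi-likelihood F test, TMM, robust dispersion, model with age alone), with Benjamini-Hochberg adjustment over all miRNAs tested. The procedure was tested on simulated data. Each SE was the log2 fold change over the square root of F. Alternative fits used DESeq2 1.42.0, RLE scaling, library totals, and no filter or one of 10 CPM. Others used a GC offset, the library number as a block, or left out each library in turn. Counts without rounding and a pseudocount of 1 were tried for the miR-1843a arm ratio alone. That ratio was also taken leaving out each library. Libraries 1 and 3 alone and 2 and 4 alone were added after seeing the data.

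Arm ratios used log2 with 0.5 added to each count. Profiles were compared as log2 CPM with a prior count of 2. Hairpins were placed with RefSeq and GENCODE M21 (373 of those tested), both on GRCm38, and folded with RNAfold 2.7.2. GC content for the offset was that of the mature sequence, found for 314. Named were the arms of miR-1843a and miR-1843b, the tested miRNAs on small nucleolar RNA or scaRNA genes, those sharing a seed, the 5 nearest profiles per arm, the neighbouring hairpins and the marker lists. The members and lists were chosen with earlier results of these data known.

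Both ages carry library numbers 1 to 4. Deviations from the age means correlated between same-numbered libraries at r = 0.256 to 0.415 in the 4 pairs, so the number was used as a block in an alternative fit. Unlike-numbered libraries ranged from -0.533 to 0.482.

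1 count equals 0.357 to 0.971 CPM after scaling, so the 3 counts that a count of 0 still allows equal 1.07 to 2.91 CPM. PCR copies cannot be told from separate molecules without molecular identifiers, so such limits and intervals cover counting error only.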

Additional observations from a re-analysis of the deposited data

Results flagged for a closer look

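In neonatal library 1 miR-1843a-3p stood at 67.2 CPM, apart from 77.6 to 79.7 CPM in the other 3 neonatal libraries. Its gap to the nearest library was 0.8294 of the whole range, just past Dixon's critical value for 4 samples. miR-6516-3p stood at 9.60 CPM in the same library and at 1.31 to 1.53 CPM in the other 3, which hold 3 or 4 counts each. Of 40 groups examined in this way 2 stood out, and chance alone does so in about 1 in 20.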

How the results depend on the processing

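With library totals 186 of all miRNAs were higher and 68 lower, the miRNAs on small nucleolar RNA or scaRNA genes went to 4 higher and 5 lower, and intronic miRNAs to 73 higher and 38 lower. miR-1843a-5p then stood at -2.03 and miR-1843a-3p at -1.81, by the construction of that scaling. miR-1843a-3p was at -2.32 with RLE scaling and with DESeq2, which share size factors. Leaving out 1 library at a time gave -2.79 to -2.46 for miR-1843a-5p, -2.44 to -2.35 for miR-1843a-3p and -0.39 to -0.12 for the difference in arm ratio.

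Of the miRNAs on small nucleolar RNA or scaRNA genes, none was higher in the fit reported. This became 1 of 16 with DESeq2 (beside 33.6% of all miRNAs), with a GC offset (29.6%) and in libraries 1 and 3 alone (34.2%). Without a filter it was 1 of 20 (15.8%). It was 2 of 16 with the library number as a block (33.3%) and with the GC offset and the block (33.6%). In libraries 2 and 4 alone it was 2 of 17 (30.0%). When single libraries were left out, 0 to 1 of 16 or 17 were higher and 9 to 10 lower. Among all miRNAs 26.7% to 34.0% were then higher and 30.7% to 33.8% lower. The cause was not tested. Without a filter 62 of 513 intronic miRNAs were higher (12.1%, beside 15.8% of all 1025), a larger number from a larger set tested and a smaller share than the 20.4% with the filter. miR-1839-5p turned to 0.58 with library totals, where the median of all miRNAs was also 0.58. It turned to 0.25 with the GC offset and the block, and both were called as higher. For miR-6516-3p edgeR's adjusted p was 0.0916 under the GC offset, and 0.0546 from libraries 1 and 3 alone. The block changed the calls of miR-1291 and both miR-677 arms and no other named call. Depth limits miR-1843b-3p and both miR-6516 arms.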
